A study of Mus musculus with 8 samples.

Results

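This section describes 32 genes of glucose uptake, glycolysis and glycogen metabolism in the mouse heart under pressure overload, out of 30445 genes in the deposited table. The members were picked by gene name, and all 32 names were found, in 33 rows because Aldoa occurs under 2 gene identifiers. All 32 genes passed the filter on low counts, which left 17787 genes to test. RNA came from hearts of C57 mice 8 weeks after transverse aortic constriction (TAC), an operation in which a ligature around the aortic arch makes the left ventricle pump against raised pressure. The groups were 4 libraries labelled wildtype and 4 labelled Mertk knockdown, and both had been operated. No unoperated heart was compared here, so every value belongs to a pressure-overloaded heart. How and in which cells Mertk, a receptor tyrosine kinase of macrophages that takes part in clearing dead cells, was lowered, the age and sex of the mice, and whether each library came from 1 mouse are not given in the labels. The p-values therefore reflect only how far these libraries differ among themselves, which may in part be technical.

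The adult heart draws most of its energy from fatty acids, and glucose is a second fuel whose share rises in the fetal heart and under pressure overload. Glucose enters the cardiomyocyte through the transporters GLUT1 and GLUT4, is phosphorylated by hexokinase, and is then either broken down to pyruvate by glycolysis or stored as glycogen. Pyruvate is reduced to lactate by lactate dehydrogenase or oxidised after entry into the mitochondrion through the pyruvate dehydrogenase complex. Several steps have a widely expressed or fetal isozyme beside one that is typical of adult striated muscle, so the balance within such a pair is a common readout of cardiac remodelling.

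Total counts lay between 59287621 and 71571173 per library, and the rows of the members took 1.08% to 1.33% of them. Levels are given as CPM, the counts scaled to library size with TMM factors. At this depth 3 counts made at most 0.0506 CPM before those factors, far below every member. The Mertk row itself was not lower under the knockdown label, with 11.1 ± 0.870 and 11.9 ± 0.951 CPM in the wildtype and the labelled knockdown libraries (SD, n = 4 each) and a log2 fold change of 0.10 (edgeR adjusted p = 0.766). Directions below are therefore those of the libraries labelled Mertk knockdown. Cardiomyocyte markers (10 genes) fitted the tissue label and summed to 40979.6 to 53254 CPM in wildtype and 53834 to 60854 CPM in the labelled knockdown libraries, 2 ranges that do not overlap. The gap was narrow, with wildtype replicate 4 just under labelled knockdown replicate 4. Of the 10 genes, 8 had a log2 fold change above 0 and 2 below (Tnnt2 and Actn2), with 0 called (0.647% of all tested genes). An unadjusted edgeR p under 0.05 was found for 2 (12.4% of all tested genes), Myh6 (10816 and 18092.5 CPM on average) and Actc1 (5315 and 7883 CPM). Most of the difference between the mean sums (44875 and 57120 CPM) lay in these 2 genes. Hepatocyte markers (14 genes, none at 0 in all libraries) summed to 237 to 300.0 CPM under the knockdown label. Wildtype replicate 1 was like those libraries (296 CPM), and the other 3 wildtype libraries held only 52.3 to 63.9 CPM. Atrial markers (6 genes) were high in wildtype replicates 3 and 4 and in labelled knockdown replicate 4, at 265 to 723 CPM against at most 39.6 CPM elsewhere. Macrophage markers (9 genes, none at 0 in all libraries) summed to 232 to 362 CPM in wildtype, highest in replicates 2 and 4, and 203 to 249 CPM under the knockdown label. All 9 had a log2 fold change below 0 (median −0.49), 4 with an unadjusted edgeR p under 0.05 (12.4% of all tested genes) and 0 called (0.647%). Endothelial markers (6 genes) summed to 743 to 783 CPM in wildtype and 780.2 to 928 CPM under the knockdown label. Among them 5 had a log2 fold change above 0, 4 of these with an unadjusted edgeR p under 0.05 (12.4% of all tested genes), 1 (Fabp4) lay below 0, and 0 were called (0.647%). The part of any of these lists in the results was not tested except where stated. The skeletal muscle list (11 genes) summed to 2132 to 3813 CPM in wildtype and 3017 to 4482 CPM under the knockdown label, and all 5 of its tested genes had log2 fold changes above 0. Nearly all of the sum was Acta1 (1642 and 1957 CPM on average) and Ckm (1279 and 1811 CPM), which the heart also expresses, while Myh1, Myh2, Myh4 and Myod1 stayed at or under 1.01 CPM in every library.

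Of the 32 genes, 1 was higher in the libraries labelled Mertk knockdown and 0 were lower at an edgeR adjusted p under 0.05, where 0.647% of the 17787 tested genes were called (0.275% higher and 0.371% lower). The called gene was Pfkfb2, the cardiac isoform of the bifunctional enzyme that makes and removes the allosteric activator of phosphofructokinase. Before adjustment, 8 members above 0 and 2 below had p under 0.05 (31.2% of the members), against 12.4% of all tested genes (6.11% higher and 6.32% lower). For 7 members the CPM of the 2 groups did not overlap (Pfkfb2, Hk2, Pkm, Slc2a4 and Pdha1 higher, Pygb and Slc2a1 lower), as they did not for 8.07% of all tested genes (4.18% higher and 3.9% lower). In FPKM (fragments scaled to gene length and library size), Pkm and Slc2a4 did overlap. There wildtype replicate 4 (145.8 and 67.0 FPKM) lay just above labelled knockdown replicate 4 (144.8 and 66.6 FPKM). The median log2 fold change of the members was 0.093, beside −0.00071 over all tested genes, and 20 of 32 lay above 0 (49.9% of all tested genes). By DESeq2, Hk2 and Pygb were called as well (adjusted p = 0.00173 and 0.00255). That method called 668 of the 17787 tested genes, where edgeR called 115.

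**Figure D1:**
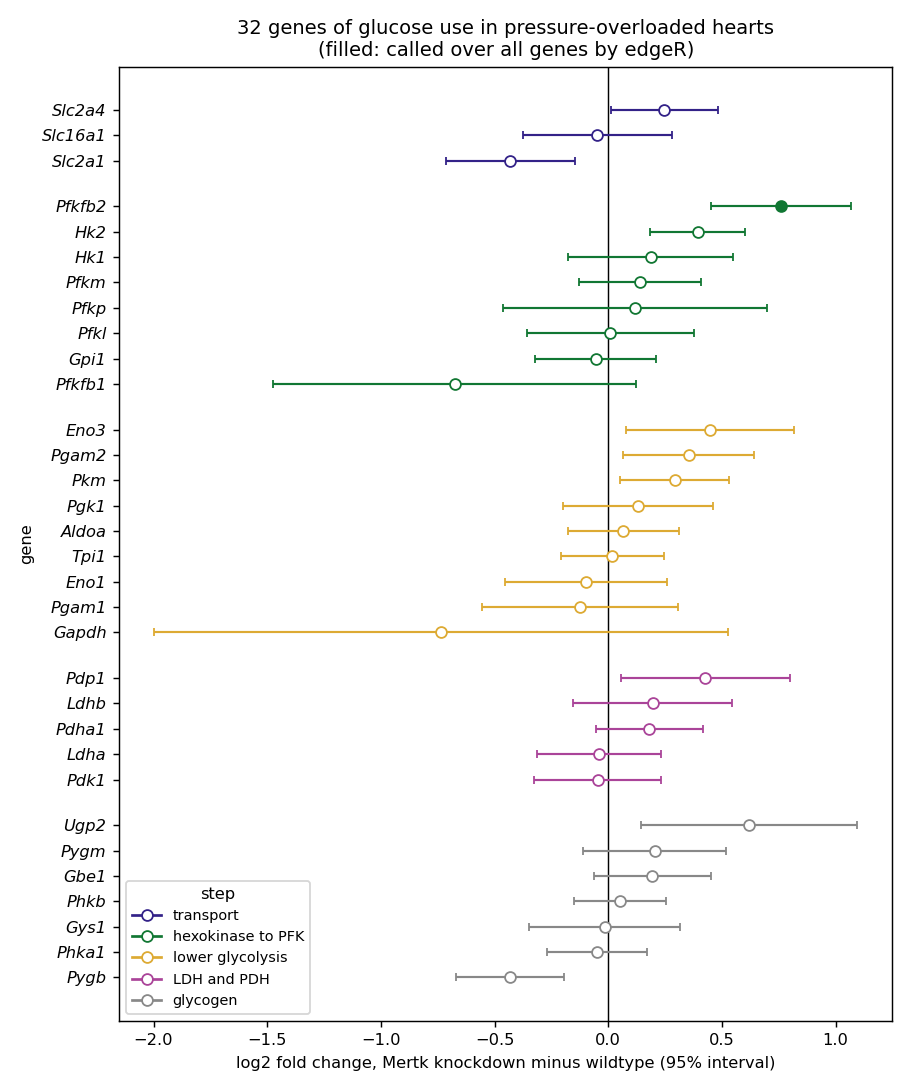
Log2 fold change of each of the 32 genes (x axis, Mertk knockdown minus wildtype, with its 95% interval) by step of glucose use, from the edgeR fit to 4 libraries per group. Pfkfb2, at 0.76, is the only filled point, the only gene called over all genes, and the intervals of Gapdh and Pfkfb1 are the widest drawn.

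Pfkfb2 rose 1.69-fold. In wildtype replicates 1 to 4 it stood at 60.7, 54.6, 60.8 and 49.5 CPM, and in the labelled knockdown replicates 1 to 4 at 113, 102, 72.1 and 95.0 CPM. Every labelled knockdown library was above every wildtype library, and replicate 3 was the lowest of the labelled group. The log2 fold change of 0.76 had an SE of 0.14 and a 95% interval of 0.45 to 1.07 (edgeR adjusted p = 0.0448). The call did not survive the omission of wildtype replicate 2, 3 or 4, nor of labelled knockdown replicate 1, 2 or 4 (adjusted p from 0.0877 to 0.119) while the log2 fold change stayed between 0.67 and 0.87 over all 8 single omissions. Within the 5 libraries high in hepatocyte markers (1 wildtype and 4 labelled knockdown) the value was 0.66 and did not pass (adjusted p = 0.443), and within the 5 low in atrial markers (2 wildtype and 3 labelled) it was 0.74 (adjusted p = 0.514). In bulk RNA, fewer cells of a type and less RNA per cell cannot be told apart, and the part of the higher cardiomyocyte marker sum in this and the following differences was not tested.

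The gene lies on mm10 at chromosome 1, 130689182 to 130715814, minus strand. The 250 bases before its RefSeq start are shown because it is the called member, with capitals marking matches of 4 motifs. They are ACGTG, a form of the core bound by hypoxia-inducible factors, and CAGCTG, an E-box of the kind bound by myogenic factors. The others are CATTCC, the M-CAT element of muscle genes, and a loose form of the MEF2 element (CTA, any 4 bases, TAG). Other forms of the hypoxia core were not searched. Both strands were searched, and adjacent ACGTG matches on opposite strands overlap as CACGTG. This sequence, from RefSeq on GRCm38.p6 (the assembly of mm10), covers chr1:130715822-130716071 and is written 5′ to 3′ on the minus strand, that of the gene.
Pfkfb2: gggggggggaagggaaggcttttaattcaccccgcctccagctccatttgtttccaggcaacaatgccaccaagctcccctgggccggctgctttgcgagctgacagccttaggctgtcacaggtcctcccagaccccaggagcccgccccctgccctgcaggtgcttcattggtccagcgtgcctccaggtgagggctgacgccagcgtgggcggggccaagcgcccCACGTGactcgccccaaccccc
It holds 1 CACGTG, counted as 2 ACGTG matches that begin 22 and 21 bases before the start, and none of the other 3 motifs. Of 32851 RefSeq windows of the same length, 16.6% hold ACGTG, 13% CAGCTG, 12.6% CATTCC and 3.2% the MEF2 form. RefSeq windows were found for 30 of the 32 members and not for Slc2a4 and Pdp1. Among the 30, taking the start nearest the 5′ end of the deposited gene, 11 hold ACGTG, 8 CAGCTG, 1 CATTCC and 2 the MEF2 form. The Ldha window, with 5 ACGTG matches, lies 4329 bases from that end. The median GC content of all RefSeq windows was 52.4%. That of the 11 windows with ACGTG ran from 36.4% (Pfkm) to 76.4% (Slc16a1), with 66.8% for Pfkfb2. The part of GC content in the ACGTG counts was not tested. A match describes letters and not a bound site.

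Among the transporters, the insulin-responsive GLUT4 gene Slc2a4 and the basal GLUT1 gene Slc2a1 pointed in opposite directions, and neither passed over all genes. Slc2a4 stood at 212, 196, 241 and 248 CPM in wildtype replicates 1 to 4 and at 279.9, 283, 253 and 249 CPM in the labelled knockdown replicates (log2 fold change 0.25, adjusted p = 0.376). In CPM the groups touched without overlapping, with wildtype replicate 4 next to labelled knockdown replicate 4. For Slc2a1 the wildtype values were 16.9, 18.0, 16.1 and 13.5 CPM and the labelled knockdown values 9.92, 13.4, 12.5 and 12.0 CPM (log2 fold change −0.43, SE 0.13, adjusted p = 0.195), all 4 labelled libraries below all 4 wildtype ones. Slc16a1, which encodes the lactate and pyruvate carrier MCT1, ranged from 178 to 224 CPM in wildtype and 155 to 232 CPM in the labelled group, with a log2 fold change of −0.048 (95% interval −0.37 to 0.28). Per gene length, Slc2a4 was the more abundant transporter, at 58.2 ± 6.33 and 69.9 ± 3.35 FPKM (fragments scaled to gene length and library size, SD, n = 4 each) in the wildtype and labelled knockdown groups, beside 4.15 ± 0.514 and 3.12 ± 0.428 FPKM for Slc2a1.

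Hexokinase, which traps glucose in the cell, and the phosphofructokinase step, at which glycolysis is committed, include 8 members besides the transporters, and 1 of them (Pfkfb2) was called. Hk2, the insulin-regulated hexokinase of muscle, had the next smallest p of all members. Its libraries stood at 218, 195, 216 and 207 CPM in wildtype and 274, 304, 251 and 269 CPM in the labelled group, so that the lowest labelled library lay well above the highest wildtype one. The log2 fold change of Hk2, 0.39 with SE 0.094 and 95% interval 0.18 to 0.60, did not pass in edgeR (adjusted p = 0.114). Hk1, the hexokinase found in most tissues, overlapped between the groups, at 123, 195, 118 and 138 CPM against 144, 191, 161 and 157 CPM (log2 fold change 0.19, adjusted p = 0.705). Wildtype replicate 2 was the highest of all 8 libraries for Hk1.

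Pfkm, the muscle subunit of phosphofructokinase, measured 774, 594, 789 and 811 CPM in wildtype and 806, 904, 769.5 and 791 CPM in the labelled group, a log2 fold change of 0.14. The liver subunit gene Pfkl had 87.1, 108, 80.0 and 99.7 CPM (wildtype) and 104, 119, 85.0 and 69.6 CPM (labelled) (0.0082), and the platelet subunit gene Pfkp had 42.8, 97.4, 39.4 and 62.2 CPM (wildtype) and 68.8, 68.5, 65.2 and 60.1 CPM (labelled) (0.12). None of the 3 passed, and the groups overlapped for each. Wildtype replicate 2 was again apart, lowest of the 8 libraries for Pfkm and highest for Pfkp. Gpi1, the isomerase between hexokinase and phosphofructokinase, had a log2 fold change of −0.055 (95% interval −0.32 to 0.21). Pfkfb1, the isoform of the bifunctional enzyme known from liver and skeletal muscle, was the lowest member per gene length (1.62 FPKM over the 8 libraries). It stood at 11.0, 3.03, 9.66 and 11.9 CPM in wildtype and 6.56, 5.71, 5.25 and 4.80 CPM in the labelled group, which gave a log2 fold change of −0.67 with SE 0.35 (edgeR adjusted p = 0.497). Without wildtype replicate 2, which lay below all other libraries, the log2 fold change of Pfkfb1 was −0.96 and passed (edgeR adjusted p = 0.0323).

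**Figure D2:**
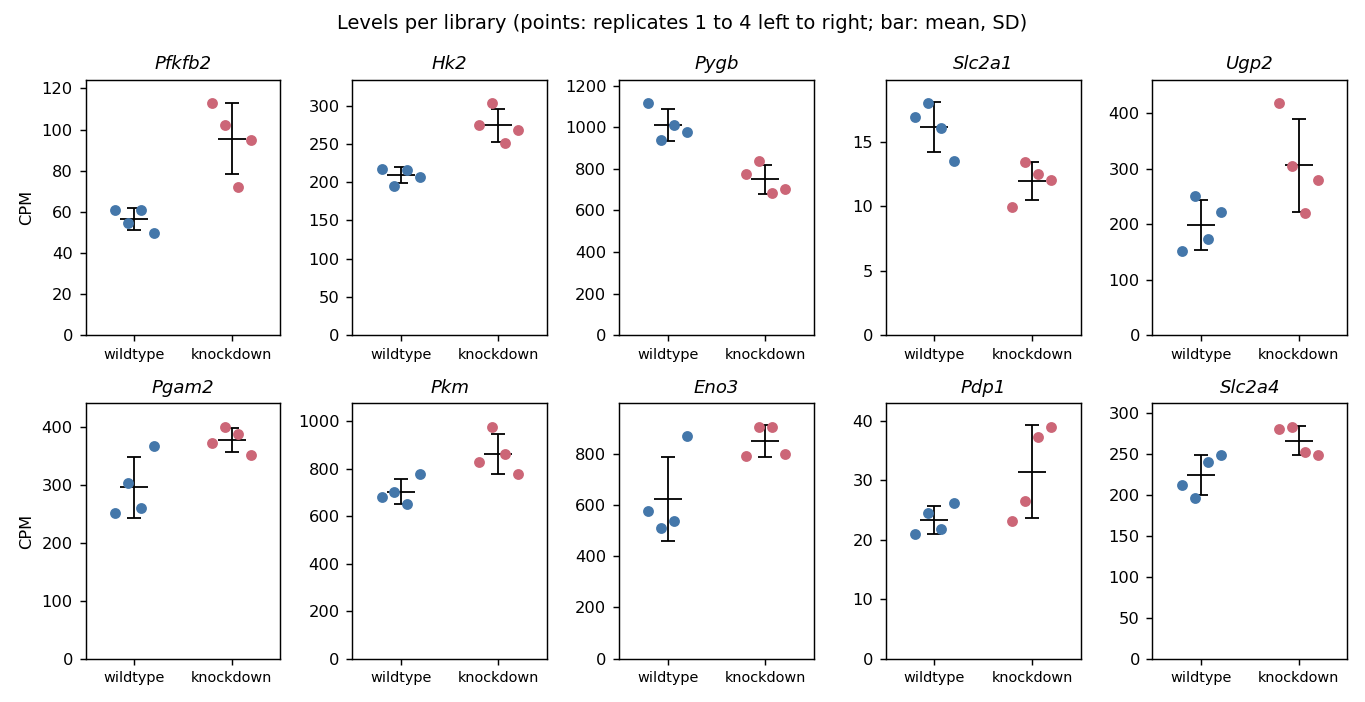
CPM (y axis, from 0) in each library for the 10 members with the smallest edgeR p, wildtype in blue and the libraries labelled Mertk knockdown in red, with mean and SD. Pfkfb2, Hk2, Pkm and Slc2a4 lie higher and Pygb and Slc2a1 lower in the labelled group without overlap, while the groups overlap for Ugp2, Pgam2, Eno3 and Pdp1.

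Lower glycolysis turns the split hexose into pyruvate and yields the ATP of the pathway. Of its 9 members 0 were called, and 3 had an unadjusted edgeR p under 0.05 (12.4% of all tested genes). All 3 had log2 fold changes above 0. Pkm, which encodes pyruvate kinase of muscle, measured 682, 699.7, 652 and 776 CPM in wildtype and 827, 977, 862 and 778 CPM in the labelled group, which gave a log2 fold change of 0.29 with SE 0.11 (edgeR adjusted p = 0.297). The highest wildtype value of Pkm, replicate 4, lay just under the lowest labelled value, also replicate 4. Eno3, the muscle enolase, had 576, 511, 537 and 868 CPM (wildtype) and 790.1, 905, 904 and 799 CPM (labelled) (log2 fold change 0.45, adjusted p = 0.305). Wildtype replicate 4 reached the labelled range for Eno3 and the other 3 wildtype libraries stayed below it. Pgam2, the muscle phosphoglycerate mutase, showed the same order, with 253, 304, 261 and 368 CPM in wildtype and 373, 401, 388 and 353 CPM in the labelled group, which gave a log2 fold change of 0.35 (edgeR adjusted p = 0.294).

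The widely expressed isozymes of the same steps had log2 fold changes nearer 0. Pgam1 measured 59.0, 74.8, 56.6 and 65.9 CPM in wildtype and 68.3, 77.3, 48.7 and 40.6 CPM in the labelled group, a log2 fold change of −0.13, with labelled replicates 3 and 4 below every other library. Eno1 measured 95.3, 140.1, 87.9 and 137 CPM (wildtype) and 101, 123, 106 and 101 CPM (labelled) (−0.098), and the labelled values lay inside the wildtype range. Aldolase (Aldoa, 0.066), triose phosphate isomerase (Tpi1, 0.017) and phosphoglycerate kinase (Pgk1, 0.13) did not pass. Leaving aside Gapdh, whose row is treated below, Aldoa was the most abundant member per gene length, at 533 ± 21.6 and 565 ± 68.2 FPKM in the 2 groups. Aldoa varied little between wildtype libraries (coefficient of variation 1.68%). Its second row, ENSMUSG00000114515, held only 0.0754 to 0.313 CPM and is left out of the counts above.

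Gapdh, the glyceraldehyde phosphate dehydrogenase often used as a reference gene, could not be read from its own row. That row stood at 44.7, 209, 55.2 and 53.9 CPM in wildtype and 52.5, 38.8, 49.8 and 77.0 CPM in the labelled group, and wildtype replicate 2 lay far above the other 7 libraries. A search of the GENCODE M21 transcripts found 97 other genes of the table, among them many processed pseudogenes, that share at least 300 bases with Gapdh on the same strand at 95% identity or more. Over all libraries those copies held 1652667 counts and the Gapdh row 38332, so that 97.7% of the summed counts sat on the copies. The row's own share of the sum was 5.59% in wildtype replicate 2 and 1.15% to 2.73% in the other 7 libraries.

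With the copies added, Gapdh came to 2873, 3745, 2926 and 3663 CPM in wildtype replicates 1 to 4 and to 3032, 3361, 3235 and 2821 CPM in the labelled group. The summed groups overlapped widely, with wildtype replicates 2 and 4 the highest of the 8. The log2 fold change moved from −0.74 (SE 0.54, 95% interval −2.00 to 0.52) for the row alone to −0.085 (SE 0.12, 95% interval −0.36 to 0.19, edgeR adjusted p = 0.845) for the sum, and neither passed. Without wildtype replicate 2 the row alone gave 0.093. How reads that match several copies were counted is not stated, so the sum may hold a read more than once. For the other members the copies held at most 7.42% of the summed counts (Eno1, whose copies include the near-identical Eno1b), and 5.89% for Pgam1. Matches on the opposite strand were left out of these sums. Of those, Pitrm1 overlaps Pfkp, shares 748 bases with it and held 2721 to 3658 counts per library. As the strand setting is not given, its part in the Pfkp row is unknown and was not tested. The sum with copies was chosen after the values had been seen.

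**Figure D3:**
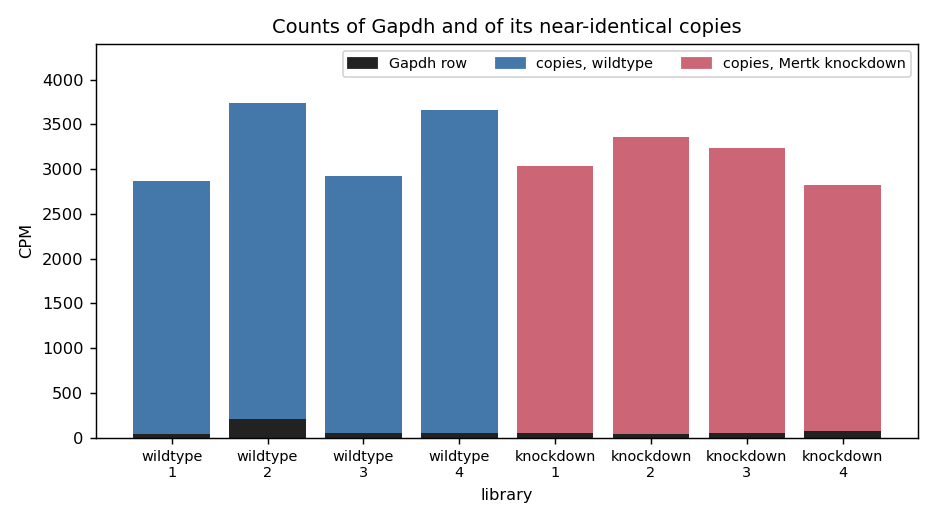
Stacked bars of CPM (y axis, from 0) per library, with the Gapdh row in black and its near-identical copies above it in blue (wildtype) or red (labelled Mertk knockdown). The Gapdh row is a thin band that is thickest in wildtype replicate 2, while the sums of the groups overlap.

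At the end of glycolysis, lactate dehydrogenase and the gate to the mitochondrion had 5 members and 0 calls. Ldhb, the heart-type subunit, measured 863, 558, 991 and 812 CPM in wildtype and 905, 976, 907 and 905 CPM in the labelled group, a log2 fold change of 0.20 (95% interval −0.15 to 0.55). Ldha, the muscle-type subunit, measured 374, 493, 390.0 and 491 CPM (wildtype) and 414, 473, 412 and 399 CPM (labelled) (log2 fold change −0.042). Wildtype replicate 2 was the lowest library for Ldhb and the highest for Ldha, and without it the log2 fold change of Ldhb was 0.061. Pdp1, the phosphatase that switches pyruvate dehydrogenase on, had 21.0, 24.5, 21.9 and 26.1 CPM in wildtype and 23.1, 26.5, 37.2 and 39.0 CPM in the labelled group, which gave a log2 fold change of 0.43 (edgeR adjusted p = 0.331). Its labelled values were split, replicates 3 and 4 far above all wildtype libraries, replicate 2 just above them and replicate 1 among them. Pdha1, the catalytic alpha subunit of pyruvate dehydrogenase, stood at 977, 793, 968 and 971 CPM (wildtype) and 1084, 1119, 1001 and 995 CPM (labelled) (log2 fold change 0.18, adjusted p = 0.548), without overlap. The inhibitory kinase gene Pdk1 had a log2 fold change of −0.047 (95% interval −0.33 to 0.23).

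Glycogen, the stored form of glucose, is built from UDP-glucose by glycogen synthase and branching enzyme and released by glycogen phosphorylase. None of the 7 members passed in edgeR. Pygb, the brain-type phosphorylase, which is also expressed in heart, measured 1117, 937, 1009.8 and 978 CPM in wildtype and 775, 837, 685 and 702 CPM in the labelled group, every labelled library below every wildtype one. This gave a log2 fold change of −0.43 with SE 0.11 and 95% interval −0.67 to −0.19 (edgeR adjusted p = 0.128). The muscle phosphorylase gene Pygm measured 979, 680.1, 946 and 819 CPM (wildtype) and 975, 1170.2, 916 and 887 CPM (labelled) (log2 fold change 0.21, adjusted p = 0.615), and the groups overlapped.

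Ugp2, which makes UDP-glucose, had the second largest log2 fold change above 0 among the members, 0.62 (SE 0.21, edgeR adjusted p = 0.268). Its libraries spread widely in both groups, at 151, 250.2, 173 and 221 CPM in wildtype and 418, 305, 219 and 279.7 CPM in the labelled group, and only labelled replicate 3 fell within the wildtype range. Glycogen synthase (Gys1, −0.016), the branching enzyme (Gbe1, 0.19) and the regulatory subunits of phosphorylase kinase (Phka1, −0.049, and Phkb, 0.052) had log2 fold changes that did not pass, and the groups overlapped for all 4.

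The balance between paired isoforms was compared within each library, where library scaling cancels. For 7 of 8 pairs the mean log2 ratio of the widely expressed or fetal form (for Ldha, the muscle-type subunit) to its partner was lower in the labelled knockdown libraries, and for 3 pairs the groups did not overlap. No such shares were computed over other gene pairs, so these counts have no background. The pairs are also not independent. Both phosphofructokinase pairs use Pfkm, and wildtype replicate 2 had the highest wildtype ratio in all 8. Among the separated pairs, the log2 count ratio of Pygb to Pygm was 0.19, 0.46, 0.094 and 0.26 in wildtype replicates 1 to 4 and −0.33, −0.48, −0.42 and −0.34 in the labelled replicates. All 4 wildtype libraries held more Pygb than Pygm counts, and all 4 labelled libraries held fewer, a 1.56-fold lower ratio. This difference of −0.64 had p = 0.0286 in a two-sided exact permutation test, the least that 4 against 4 allows, and 0.0762 after adjustment over the 8 pairs. Per gene length, Pygb made up 44.3% ± 2.67 in wildtype and 33.8% ± 1.12 in the labelled group of the summed FPKM of both phosphorylases (SD, n = 4 each).

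The GLUT1 to GLUT4 log2 count ratio (Slc2a1 to Slc2a4) was −3.65, −3.45, −3.90 and −4.20 in wildtype and −4.82, −4.40, −4.34 and −4.37 in the labelled group, a difference of −0.68 or 1.60-fold. For the enolases (Eno1 to Eno3) it was −2.60, −1.87, −2.61 and −2.66 in wildtype and −2.97, −2.88, −3.10 and −2.99 in the labelled group, a difference of −0.55 or 1.46-fold. Both pairs gave the same exact permutation p of 0.0286, and 0.0762 after adjustment, so no pair passed. As 0.0286 is the least p that 4 against 4 allows, the pairs that separated were too few to pass after adjustment over 8 pairs, however large their differences. Wildtype replicate 2 stood apart for the enolases: without it that difference was −0.36, while the phosphorylase pair gave −0.57 and the transporters −0.56. Slc2a1 contributed 3.64 FPKM on average, so GLUT1 made up only 6.75% ± 1.38 in wildtype and 4.28% ± 0.595 in the labelled group of the FPKM of the 2 transporters. Eno1 made up 5.77% ± 1.58 in wildtype and 3.93% ± 0.232 in the labelled group of the enolase FPKM.

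For the mutases (Pgam1 to Pgam2) the log2 ratio was −2.10, −2.02, −2.21 and −2.48 in wildtype and −2.45, −2.38, −2.99 and −3.12 in the labelled group (difference −0.53, exact permutation p = 0.0857, 0.171 adjusted), with labelled replicates 3 and 4 lowest. The hexokinases (Hk1 to Hk2, difference −0.18), both phosphofructokinase pairs (Pfkp to Pfkm, 0.066, and Pfkl to Pfkm, −0.16) and lactate dehydrogenase (Ldha to Ldhb, −0.26) had adjusted exact permutation p between 0.653 and 0.943. Without wildtype replicate 2 the differences of Hk1 to Hk2 and Pfkl to Pfkm turned sign, to 0.0065 and 0.017, and that of Ldha to Ldhb was −0.030. This library had the highest ratio of the wildtype libraries in all 8 pairs, and it also had the highest summed fibroblast markers (7 genes, 1322 CPM, where the other 7 libraries had 547 to 895) and, after wildtype replicate 4, the highest macrophage markers (341 CPM). The part of either cell type in the ratios was not tested. Labelled libraries resembled each other closely for Ldha to Ldhb, at −1.13, −1.04, −1.14 and −1.18, whereas the wildtype values spread over −1.21, −0.18, −1.35 and −0.72.

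**Figure D4:**
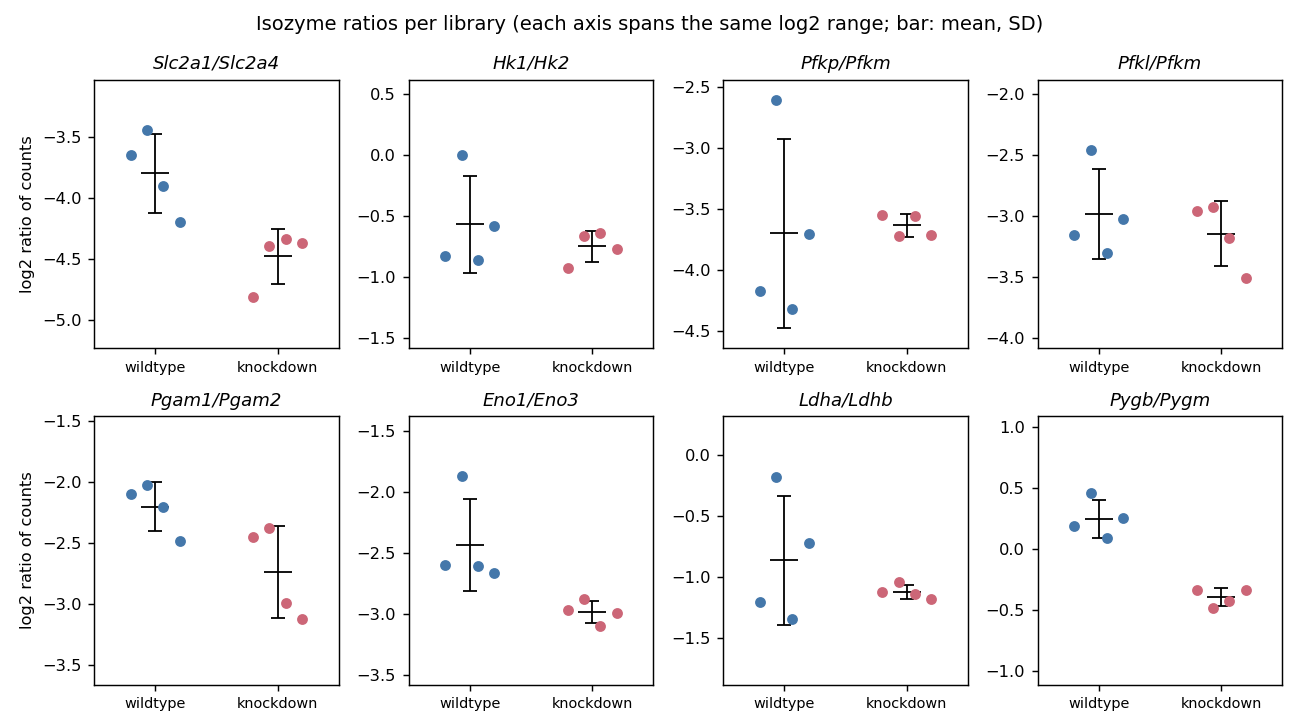
Log2 ratio of counts (y axis, every panel spanning the same range) for 8 isoform pairs in each library, wildtype in blue and labelled Mertk knockdown in red, with mean and SD. The groups separate for Slc2a1/Slc2a4, Eno1/Eno3 and Pygb/Pygm and overlap for the other 5 pairs, and wildtype replicate 2 is the highest blue point in each panel.

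The start regions of the 3 separated pairs are shown so that the partners can be compared, as the 250 bases before the RefSeq start, with capitals as above. They lie at chr2:150786546-150786795 (plus strand), chr19:6384158-6384407 (plus strand), chr4:150236458-150236707 (plus strand), chr11:70656926-70657175 (plus strand) and chr4:119108495-119108744 (plus strand) on GRCm38.p6; Slc2a4 had no entry.
Pygb: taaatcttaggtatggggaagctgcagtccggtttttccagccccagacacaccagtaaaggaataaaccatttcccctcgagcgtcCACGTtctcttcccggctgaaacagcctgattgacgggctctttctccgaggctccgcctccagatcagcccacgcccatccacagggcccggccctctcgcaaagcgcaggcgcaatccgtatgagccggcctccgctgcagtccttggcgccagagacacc
Pygm: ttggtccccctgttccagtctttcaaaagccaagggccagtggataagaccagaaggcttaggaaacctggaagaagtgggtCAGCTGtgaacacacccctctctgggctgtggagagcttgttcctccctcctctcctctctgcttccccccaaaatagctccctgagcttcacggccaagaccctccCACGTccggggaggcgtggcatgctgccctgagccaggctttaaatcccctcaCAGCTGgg
Eno1: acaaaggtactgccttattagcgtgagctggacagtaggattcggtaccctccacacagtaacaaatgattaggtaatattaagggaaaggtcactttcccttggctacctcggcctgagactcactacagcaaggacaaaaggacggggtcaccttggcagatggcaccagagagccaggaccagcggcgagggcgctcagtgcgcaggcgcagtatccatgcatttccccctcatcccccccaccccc
Eno3: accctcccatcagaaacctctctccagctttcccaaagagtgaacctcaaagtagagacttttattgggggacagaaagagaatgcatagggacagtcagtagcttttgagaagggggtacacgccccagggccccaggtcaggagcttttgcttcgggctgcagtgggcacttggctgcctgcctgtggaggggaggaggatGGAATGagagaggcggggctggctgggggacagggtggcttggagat
Slc2a1: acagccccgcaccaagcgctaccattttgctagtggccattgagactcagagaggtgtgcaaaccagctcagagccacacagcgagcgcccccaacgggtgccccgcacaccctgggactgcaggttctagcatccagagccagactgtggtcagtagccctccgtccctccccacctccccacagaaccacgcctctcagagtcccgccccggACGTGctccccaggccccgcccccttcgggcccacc
Pygm holds 2 matches of CAGCTG, beginning 168 and 8 bases before the start, and 1 of ACGTG. Pygb holds 1 match of ACGTG, 163 bases before the start. In Eno3 the 1 match is CATTCC, 47 bases before the start (printed as its reverse complement), and it is the only CATTCC among the 30 members. Eno1 holds none of the 4 motifs, and Slc2a1 holds 1 ACGTG, 36 bases before its start.

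Across genes, levels per gene length spanned from 549 FPKM for Aldoa to 1.62 FPKM for Pfkfb1 (means over 8 libraries). Ldhb (460.5 ± 88.5 and 538 ± 22.1 FPKM in the 2 groups, SD, n = 4 each) followed Aldoa, then came Eno3 (325 ± 97.0 and 447 ± 38.6), Pgam2 (320.1 ± 69.8 and 412 ± 23.2) and Pygm (239 ± 31.5 and 280.3 ± 33.8). In the wildtype group Aldoa and Ldhb differed by less than the SD of Ldhb, and Eno3 and Pgam2 by less than either SD. At the low end, Pdp1 (4.69 ± 0.667 and 6.40 ± 1.73), Pfkp (4.11 ± 1.95 and 4.47 ± 0.206) and Slc2a1 (4.15 ± 0.514 and 3.12 ± 0.428) followed, and they differed by less than the SD of Pfkp in the wildtype group. The regulator Pfkfb2, at 6.99 ± 0.451 and 12.0 ± 1.94 FPKM, was thus far less abundant than the enzyme it regulates, Pfkm, at 200.2 ± 26.0 and 224 ± 14.9 FPKM. The Gapdh row, at 20.1 ± 18.1 and 12.1 ± 3.73 FPKM, does not show the level of that gene for the reason given above.

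**Figure D5:**
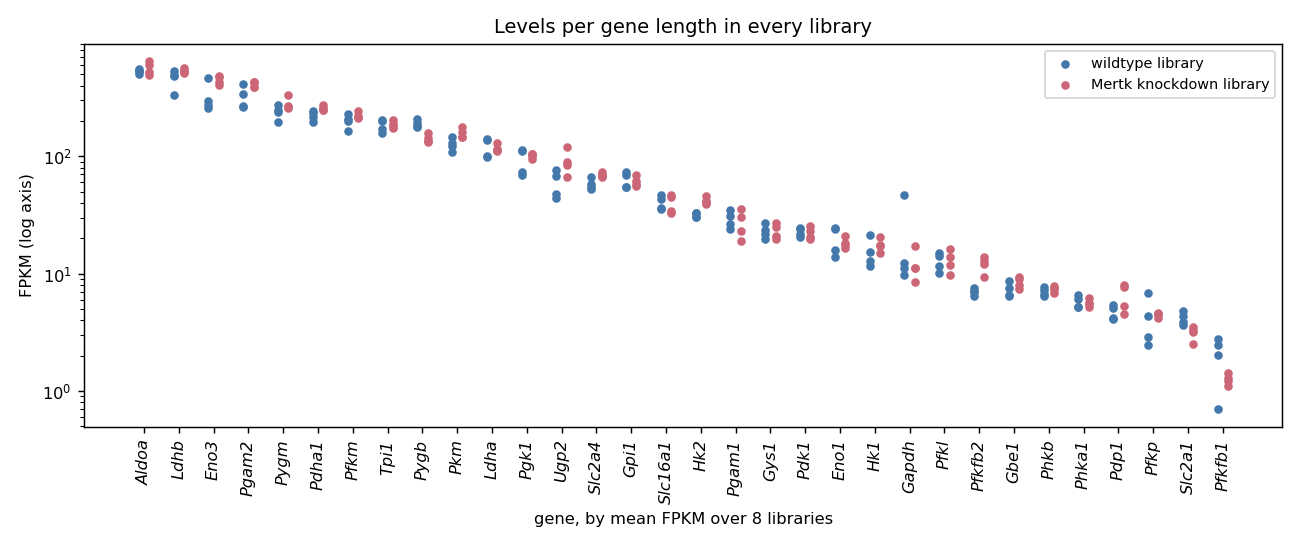
FPKM (y axis, log scale) of the 32 genes in each of the 8 libraries, ordered by the mean over libraries, wildtype in blue and labelled Mertk knockdown in red. Levels run from Aldoa to Pfkfb1, and the lone high blue point of Gapdh is wildtype replicate 2.

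The libraries did not vary alike. Wildtype replicate 2 was the highest or lowest wildtype library for 24 of the 32 members, and the other 3 wildtype libraries for 12 to 15. In the labelled group, replicate 2 was the highest library for 21 members, and replicate 4 the lowest for 16. The coefficient of variation of CPM in wildtype was 87.2% for the Gapdh row, 45.2% for Pfkfb1 and 44.0% for Pfkp, and 13.5% and 6.13% for the latter pair in the labelled group. For Hk2 it was 4.95% in wildtype, where only Aldoa varied less, and 7.98% in the labelled group.

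Around these members, 83 further genes of transport, glycolysis, pyruvate use, glycogen, side branches and regulation were listed, of which 80 were tested (Hkdc1 was not analysed here). By edgeR 0 of them were called over all genes, where 0.647% of all tested genes were. An unadjusted p under 0.05 was found for 7 higher and 7 lower (6.11% and 6.32% of all tested genes), and their median log2 fold change was 0.042. The groups did not overlap for 1 of 8 transport, 2 of 13 glycolysis and 2 of 13 pyruvate genes. Nor did they for 0 of 16 glycogen, 1 of 10 side branch and 2 of 20 regulator genes (8.07% of all tested genes). The 4 with the smallest p were Slc16a7, Adpgk, Pdhb and Pfkfb3. For all 4 the groups did not overlap, which adds nothing to their p because they were picked by it. Slc16a7, the monocarboxylate carrier MCT2, stood at 3.37, 3.05, 4.01 and 4.92 CPM in wildtype and 5.35, 9.47, 7.74 and 9.08 CPM in the labelled group, which gave a log2 fold change of 1.04 (edgeR adjusted p = 0.0754). Pdhb, the beta subunit that pairs with Pdha1, had 295, 339, 296 and 433 CPM (wildtype) and 519, 487, 469 and 474 CPM (labelled) (0.52, adjusted p = 0.144).

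Pfkfb3, the inducible isoform of the enzyme that Pfkfb2 encodes, had 14.5, 46.7, 17.7 and 41.7 CPM in wildtype and 9.26, 11.4, 10.4 and 10.4 CPM in the labelled group, which gave a log2 fold change of −1.54 with SE 0.37 (edgeR adjusted p = 0.145). Wildtype replicates 2 and 4 were far above the other wildtype libraries, and those 2 also had the highest macrophage marker sums (9 genes, 341 and 362 CPM, where the other 6 libraries had 203 to 249); their part in Pfkfb3 was not tested. Adpgk, a glucokinase that uses ADP, had 10.2, 11.4, 10.4 and 9.02 CPM (wildtype) and 6.95, 6.89, 7.57 and 8.14 CPM (labelled) (−0.47, adjusted p = 0.127). Of the 13 tested genes of pyruvate use outside the members, 10 had a log2 fold change above 0 and 3 below. Of these, 4 and 1 had an unadjusted edgeR p under 0.05, beside 6.11% and 6.32% of all tested genes. The gene below 0 with such a p was Pdk4, an inhibitory kinase of pyruvate dehydrogenase, at 557, 416, 581 and 516 CPM in wildtype and 410.3, 295, 283 and 174 CPM under the knockdown label (log2 fold change −0.83, edgeR adjusted p = 0.169), named after its values were seen, and its groups did not overlap. Of 16 tested glycogen genes outside the members, 7 lay above 0 and 9 below, and 1 of those below had an unadjusted p under 0.05.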

How the data were processed

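Polyadenylated RNA from 8 heart samples was sequenced as paired ends, per the labels' protocols. The build mm10 and the tools HISAT2 2.2.1, StringTie 2.1.6, cutadapt 1.9, edgeR and DESeq2 are named, without a role, in the submitters' processing notes; the annotation release and strand setting are not given in the sources used here. The authors deposited whole-number counts per gene and FPKM for each library. The deposited counts were tested in R 4.3.3 with edgeR 4.0.16 (quasi-likelihood F test, TMM, filterByExpr, robust, no covariate, two-sided) over all genes, with Benjamini-Hochberg adjustment and calls under 0.05; log2 fold changes are Mertk knockdown minus wildtype. The script was tested on simulated data. DESeq2 1.42.0 and limma 3.58.1 (on log2(FPKM + 1) and log2(FPKM + 0.1)) served as alternatives. Isoform ratios were compared by exact permutation. Near-identical copies were found with blastn. The members and lists were chosen with earlier results of these data known. Values per library are given for the 10 members with the smallest p and for both genes of every pair; of the other lists the 4 genes with the smallest p are named. Mean counts are TMM-scaled CPM. Libraries of one group differed by far more than counting noise (chi-square over its degrees of freedom 37.9 to 199). Floors cover counting error only.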

Additional observations from a re-analysis of the deposited data

Results flagged for a closer look

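Single libraries that lay far from the other 3 of their group were searched for in 102 sets of 4 values (members, Gapdh summed with its copies, isoform ratios and marker sums), and 11 were found where chance flags about 1 set in 20. Among the members, the Gapdh row of wildtype replicate 2 was at 209 CPM against 44.7 to 55.2 CPM in the other wildtype libraries, and Pdha1 of the same library at 793 CPM against 968 to 977 CPM. In labelled knockdown replicate 2, Ldhb was at 976 CPM against 905 to 907 CPM, and in labelled knockdown replicate 3 Phkb was at 53.8 CPM against 61.0 to 62.5 CPM. The log2 ratio of Slc2a1 to Slc2a4 was −4.82 in labelled knockdown replicate 1 against −4.40 to −4.34, and that of Eno1 to Eno3 was −1.87 in wildtype replicate 2 against −2.66 to −2.60. The remaining 5 were marker sums. Hepatocyte markers reached 296 CPM in wildtype replicate 1 against 52.3 to 63.9 CPM, and smooth muscle markers 286 CPM in the same library against 132 to 151 CPM. Atrial markers reached 723 CPM in labelled knockdown replicate 4 against 18.1 to 20.5 CPM, adipocyte markers 54.8 CPM in wildtype replicate 3 against 0 to 3.31 CPM, and erythrocyte markers 2094 CPM in labelled knockdown replicate 2 against 899 to 1050 CPM.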

How the results depend on the processing

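Over 22 alternative fits, 18 of the 32 members kept the sign of their log2 fold change, and the median of the members stayed between 0.042 and 0.15 when single libraries were left out (lowest without wildtype replicate 3, highest without labelled knockdown replicate 4). Among those 8 fits the members called higher numbered 0 to 1 and lower 0 to 1, and all genes called 15 to 165 higher and 29 to 100 lower (265 in all without wildtype replicate 1, and 44 to 84 without any other library). Elsewhere, members called higher numbered 0 with the atrial covariate, the hepatocyte covariate, log2(FPKM + 1) without a filter, only libraries high in hepatocyte markers, only libraries low in atrial markers, and the replicate block, and 2 by DESeq2, which also called 1 lower. All genes called higher and lower were 297 and 371 by DESeq2, 27 and 43 with log2(FPKM + 1), 29 and 40 with log2(FPKM + 0.1), 8 and 13 with log2(FPKM + 1) and no filter, 7 and 11 with the hepatocyte covariate, 16 and 38 with the atrial covariate, 19 and 23 in the libraries high in hepatocyte markers, and 2 and 4 in those low in atrial markers. With the replicate block they were 5 and 19. The labels do not say whether the replicate numbers pair the samples. Same-numbered libraries correlated above 0.1 for 1 of 4 numbers (0.181 for replicate 4, −0.0065 to 0.062 for the others). These correlations cannot show whether same-numbered samples were handled together. Each log2 ratio kept its difference and gave an adjusted p of at least 0.25 under paired sign flips. With 4 differences that test allows no p under 0.125, so no ratio could pass.

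Signs turned, with none called, as follows. With the hepatocyte covariate they turned for Eno1 (0.19), Gapdh (0.33), Gpi1 (0.13), Ldha (0.19), Phka1 (0.070), Phkb (−0.076) and Slc16a1 (0.094); in the libraries high in hepatocyte markers for Eno1 (0.18), Gapdh (0.29), Gpi1 (0.15), Ldha (0.19), Pgam1 (0.0028), Phka1 (0.087), Phkb (−0.090) and Slc16a1 (0.12), and for the ratios Hk1/Hk2 (0.075), Ldha/Ldhb (0.085) and Pfkl/Pfkm (0.0093). In the libraries low in atrial markers they turned for Gys1 (0.058), Ldha (0.0056), Pfkp (−0.048), Phkb (−0.032) and Slc16a1 (0.013) and the ratio Pfkp/Pfkm (−0.22); with the atrial covariate for Pfkl (−0.097) and Tpi1 (−0.0073); with the replicate block for Pfkl (−0.0098). Gys1 was at 0.0041 with log2(FPKM + 0.1) and 0.0040 with log2(FPKM + 1), filtered or not. Leaving out 1 library turned the sign in at least 1 of 8 fits for Hk1/Hk2 (−0.28 to 0.0065), Pfkl/Pfkm (−0.26 to 0.017), Pfkp/Pfkm (−0.14 to 0.43), Aldoa (−0.0072 to 0.14), Eno1 (−0.21 to 0.017), Gapdh (−0.96 to 0.093), Gpi1 (−0.13 to 0.021), Gys1 (−0.10 to 0.077), Ldha (−0.11 to 0.027), Pdk1 (−0.12 to 0.014), Pfkl (−0.12 to 0.13), Pfkp (−0.039 to 0.45), Pgam1 (−0.29 to 0.023), Phka1 (−0.12 to 0.0059), Slc16a1 (−0.15 to 0.041) and Tpi1 (−0.028 to 0.064). Without a change of sign, the values of Ldhb (0.061 to 0.31), Hk1 (0.10 to 0.38), Pfkm (0.053 to 0.19), Pgk1 (0.042 to 0.23), Pygm (0.11 to 0.28), Gbe1 (0.13 to 0.28), Pdha1 (0.12 to 0.21), Phkb (0.021 to 0.11), Ldha/Ldhb (−0.42 to −0.030) and Eno1/Eno3 (−0.63 to −0.36) moved by over 1.5 times, none of them called. The cause of these changes was not tested. Fits to the libraries high in hepatocyte markers rest on 1 wildtype library, assumed to vary like the labelled group. Differences smaller than the intervals given could not be resolved with 4 libraries a group.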
